A study of Mus musculus with 8 samples.

Results

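The 9 genes Dnm1l, Fis1, Mff, Mfn1, Mfn2, Opa1, Fundc1, Bnip3 and Pink1 encode proteins that divide, fuse or clear mitochondria. They were taken by gene symbol from a table of 35494 symbols measured in mouse quadriceps. All 9 were present and all 9 were among the 14112 genes that passed the filter on low counts. Bulk RNA sequencing had been done on 8 wild-type (WT) male C57BL/6 mice, 1 library per mouse. In the scMC38 group, 4 mice had received 1000000 MC38 cells under the skin. MC38 is a mouse colorectal cancer line, so the tumours grew outside the muscle and outside the organ of origin. In the control group, 4 mice had received an equal volume of PBS instead, called saline in the design text. Mice were 8 weeks old when assigned to a group, and muscle was taken at day 28. The design implies 1 comparison, scMC38 against control, and cachexia with this tumour is called mild in the title of the series.

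Mitochondria in muscle fibres form a network that is cut by fission and joined by fusion. Fission needs the cytosolic GTPase Drp1, encoded by Dnm1l, which adaptors such as Fis1 and Mff bring to the outer membrane. Fusion of the outer membranes depends on the mitofusins Mfn1 and Mfn2, and that of the inner membranes on Opa1. Damaged or surplus mitochondria are taken up by autophagosomes in a process called mitophagy, either through receptors that sit in the outer membrane, among them Fundc1 and Bnip3, or through the kinase Pink1, which marks them for removal with the help of ubiquitin. Loss of muscle mass is a setting in which these genes are often measured.

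Totals ran from 50.47 to 62.11 M (M, 1000000) estimated counts per library. Summed myofibre markers, among them Acta1 and Ckm, were at 95553 to 133033 counts per M (CPM) in scMC38 libraries and at 96204 to 131625 CPM in control libraries, so each library held muscle mRNA. In neutrophil and bone markers the libraries scMC38 1 and scMC38 3 stood apart: the 12 neutrophil markers summed to 494 and 4459.9 CPM there. The 9 bone markers summed to 101 and 792 CPM in these libraries. In the other 6 libraries the neutrophil sum was 38.97 CPM or less and the bone sum 23.3 CPM or less, with Bglap2 at 0 in all controls. Adipocyte markers summed to 622 CPM in control 4, against 213 to 308 CPM in the other controls and 289 to 416 CPM in scMC38 libraries. Macrophage markers were at 442, 278, 583 and 136 CPM in scMC38 libraries 1 to 4, against 128 to 175 CPM in control libraries. The part of adipocyte and macrophage mRNA in the results below was not tested. The 10 red cell markers were at 1644 to 2892 CPM in scMC38 libraries and 501 to 1087 CPM in control libraries, and their part in the results below was not tested. The libraries control 1 and control 2 had the highest share of counts on the 13 mitochondrially encoded genes. That share was 14.4%, 15.7%, 18.0% and 18.9% in scMC38 libraries, against 24.3%, 29.7%, 16.3% and 16.8% in control libraries, a difference of -5.055 percentage points (two-sided exact permutation test, p = 0.2571, smallest possible 0.0286).

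In tumour-bearing mice the mRNA of Bnip3 was above, and that of Dnm1l and Fundc1 below, the level of every control, but none of the 9 genes passed the test. Bnip3 averaged 282 ± 61.0 CPM in scMC38 and 192 ± 19.3 CPM in control libraries. Dnm1l averaged 56.2 ± 5.18 CPM in scMC38 and 71.3 ± 3.98 CPM in control libraries. Fundc1 averaged 19.1 ± 1.9 CPM in scMC38 and 23.9 ± 0.878 CPM in control libraries (SD, n = 4 each). In these 3 genes the scMC38 libraries all lay on one side of the control libraries, while the groups overlapped in the other 6. At an adjusted p under 0.05 in edgeR's quasi-likelihood test, 0 of the 9 genes were called, where 1.2% of all genes tested were (0.737% higher and 0.468% lower). At an unadjusted p under 0.05 there were 3 of the 9, against 21% of all genes. DESeq2 called the same 3, Bnip3 higher and Dnm1l and Fundc1 lower, in a fit that called 5.89% of all genes higher and 4.24% lower. Groups did not overlap in 1 gene higher and 2 genes lower, against 6.82% and 6.45% of all genes. The median log2 fold change of the 9 genes was -0.15, with 7 negative and 2 positive, beside 0.00 for all genes tested.

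**Figure D1:**
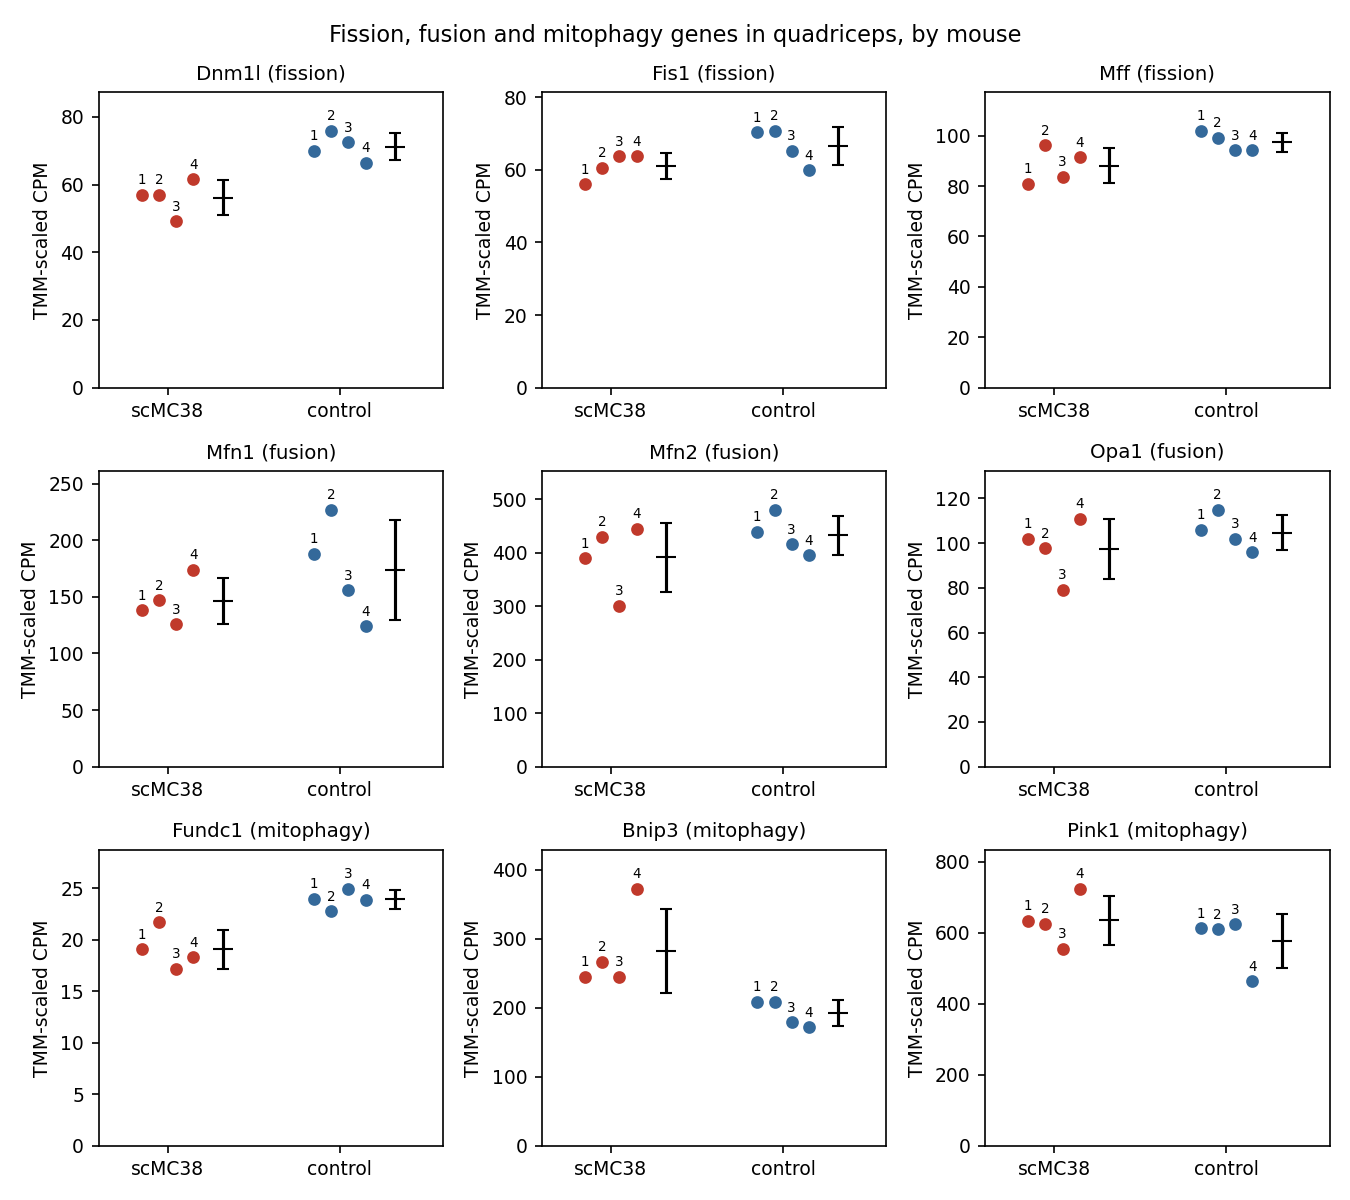
Abundance of each of the 9 genes in each mouse, in TMM-scaled counts per M on axes that start at 0. Points are single libraries with their replicate number, scMC38 on the left and control on the right, and bars beside them are the mean and SD (n = 4). Bnip3 at 245 to 373 CPM in scMC38 lies above its 172 to 209 CPM in control libraries, and Dnm1l at 49.1 to 61.6 CPM in scMC38 lies below its 66.5 to 75.96 CPM in control libraries.

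The genes of the fission step were all lower on average in scMC38 libraries, and 1 of the 3 had groups apart. Dnm1l, whose product assembles into rings that constrict the mitochondrion, was at 56.97, 56.96, 49.1 and 61.6 CPM in scMC38 libraries 1 to 4, against 70.04, 75.96, 72.5 and 66.5 CPM in control libraries 1 to 4. The highest scMC38 library thus lay 4.897 CPM below the lowest control library. The log2 fold change of Dnm1l was -0.34 (SE 0.0853, 95% interval -0.54 to -0.15, adjusted p = 0.0875, edgeR), a level 21.2% below the control mean. In whole muscle, fewer cells of a type and less RNA per cell cannot be told apart for this or any gene here. Leaving out each library in turn gave log2 fold changes of Dnm1l between -0.39 and -0.29. Without scMC38 1 and 3, the libraries with bone and neutrophil mRNA, the value was -0.24.

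Fis1, a small tail-anchored adaptor of the outer membrane, was at 56.1, 60.6, 63.8 and 63.8 CPM in scMC38 libraries, against 70.4, 70.8, 65.2 and 59.9 CPM in control libraries. All 4 scMC38 libraries were below the control mean, but control 4 was within their range. For Fis1 the log2 fold change was -0.12 (SE 0.0804, adjusted p = 0.399, edgeR). Mff, the adaptor that recruits most Drp1 in mammalian cells, was at 80.9, 96.2, 83.7 and 91.4 CPM in scMC38 libraries, against 102, 99.1, 94.2 and 94.2 CPM in control libraries. Only scMC38 2 reached into the control range. For Mff it was -0.15 (SE 0.0791, adjusted p = 0.316, edgeR). Fis1 and Mff varied little between mice, with coefficients of variation of 6.01% and 7.97% in scMC38 and 7.65% and 4.12% in control libraries.

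The genes of the fusion step had negative fold changes that were small beside the spread between mice, and their groups overlapped. Mfn1, a GTPase that tethers outer membranes, was at 138, 147, 126 and 174 CPM in scMC38 libraries, against 188, 227, 156 and 124 CPM in control libraries. The controls spanned the whole scMC38 range, with control 2 highest and control 4 lowest of all 8 libraries. The log2 fold change of Mfn1 was -0.25 (SE 0.185, 95% interval -0.67 to 0.17, adjusted p = 0.462, edgeR), and it was 0.05 without control 1 and 2, the libraries with the high mitochondrially encoded share.

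Mfn2, the second mitofusin, which also sits at contacts with the endoplasmic reticulum, was at 390.1, 429.6, 301 and 445 CPM in scMC38 libraries, against 439, 480.5, 416 and 395 CPM in control libraries. The lowest value belonged to scMC38 3, and the other 3 scMC38 libraries lay near or within the control range. For Mfn2 the log2 fold change was -0.15 (SE 0.138, adjusted p = 0.573, edgeR). Opa1, which fuses inner membranes and keeps cristae in shape, was at 102, 97.6, 79.2 and 111 CPM in scMC38 libraries, against 106, 115, 102 and 95.96 CPM in control libraries. Again scMC38 3 was lowest and the other 3 scMC38 libraries were among the controls. For Opa1 it was -0.11 (SE 0.114, adjusted p = 0.625, edgeR). Without scMC38 1 and 3 the values of Mfn2 and Opa1 were 0.04 and 0.02.

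The mitophagy genes had fold changes of both signs. Bnip3, an outer-membrane receptor that binds LC3 proteins on the autophagosome, was at 245, 267, 245 and 373 CPM in scMC38 libraries, against 209, 209, 179.5 and 172 CPM in control libraries. All 4 scMC38 libraries were above all 4 controls, and scMC38 4 was well above the rest. The log2 fold change of Bnip3 was 0.55 (SE 0.154, 95% interval 0.20 to 0.90, adjusted p = 0.106, edgeR), a ratio of means of 1.47. It was 0.39 without scMC38 4, the lowest value when each library was left out in turn, and 0.75 without scMC38 1 and 3. The library scMC38 4 had bone markers at 7.25 CPM, against 7.75 to 23.3 CPM in control libraries, and neutrophil markers at 38.97 CPM, against 2.45 to 9.73 CPM in control libraries. Scaling by total counts alone gave 0.65 (adjusted p = 0.0363, edgeR), a scaling under which the median of all genes was 0.11, and 1.53% of genes were called higher.

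Bnip3 is known as a target of hypoxia-inducible factors and, in mouse muscle, of the forkhead factor FoxO3, and its promoter is shown for that reason beside that of Dnm1l, the gene with the smallest p of the 9. The sequences are from RefSeq on GRCm38.p6, an earlier build than the GRCm39 of the count table, and run 5′ to 3′ over the 250 bases before the most upstream start listed. Bnip3 is given for chr7:138909507-138909756 and Dnm1l for chr16:16359032-16359281, both on the minus strand. Capitals mark the palindrome CACGTG, which holds ACGTG, a form of the core of the hypoxia response element, on either strand. The form GCGTG of that core was not searched or marked. Read on both strands, it occurs in the windows of Bnip3, Mfn2 and Pink1.
Bnip3: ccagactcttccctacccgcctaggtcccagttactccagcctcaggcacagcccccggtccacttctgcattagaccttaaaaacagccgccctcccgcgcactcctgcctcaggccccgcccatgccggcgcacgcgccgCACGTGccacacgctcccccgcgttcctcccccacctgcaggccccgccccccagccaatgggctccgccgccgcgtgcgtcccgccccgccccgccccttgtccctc
Dnm1l: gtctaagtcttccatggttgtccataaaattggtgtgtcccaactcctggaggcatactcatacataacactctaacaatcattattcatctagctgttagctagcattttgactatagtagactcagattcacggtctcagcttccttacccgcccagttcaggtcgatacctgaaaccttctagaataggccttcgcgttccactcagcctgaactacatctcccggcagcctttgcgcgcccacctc
The palindrome begins 108 bases before the start of Bnip3. Of the 9 genes, 1 had ACGTG or its reverse complement CACGT in this window, against 16.5% of 27025 promoters of the same length, and CACGTG was found in 6.04% of them. The core TGTTTAC, read by forkhead factors, and AAGGTCA, read by estrogen-related receptors, were searched on both strands and were found in 0 of the 9 windows, against 3.06% and 4.04% of promoters. The Fundc1 window is among the 9 counted but is not shown. The start listed for it lies behind 1 start codon of the gene in GENCODE M21, so the window does not precede the whole gene. A match in these letters does not show that a factor is bound.

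Fundc1, another outer-membrane receptor that binds LC3 proteins, was at 19.1, 21.7, 17.2 and 18.3 CPM in scMC38 libraries, against 24.01, 22.8, 24.98 and 23.9 CPM in control libraries. All 4 scMC38 libraries lay below all 4 controls, with a gap of 1.125 CPM between scMC38 2 and control 2. The log2 fold change of Fundc1 was -0.33 (SE 0.0828, 95% interval -0.51 to -0.14, adjusted p = 0.0894, edgeR), and it stayed between -0.39 and -0.28 when each library was left out in turn. Without scMC38 1 and 3 it was -0.24. Fundc1 was the least abundant of the 9 genes, and its lowest estimated count was 930, in scMC38 4.

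Pink1, the kinase that builds up on mitochondria that have lost membrane potential, was at 634, 626, 555 and 725 CPM in scMC38 libraries, against 613, 610.4, 625 and 464 CPM in control libraries. The groups overlapped, and control 4 stood well below the other 3 controls. Its log2 fold change was 0.14 (SE 0.134, 95% interval -0.17 to 0.44, adjusted p = 0.589, edgeR). Bnip3l, also called Nix, the paralogue of Bnip3 with the same kind of role, was at 81.6 ± 4.29 CPM in scMC38 and 72.9 ± 3.59 CPM in control libraries, or 0.16 on the log2 scale (SE 0.0708, n = 4 each, adjusted p = 0.236, edgeR).

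**Figure D2:**
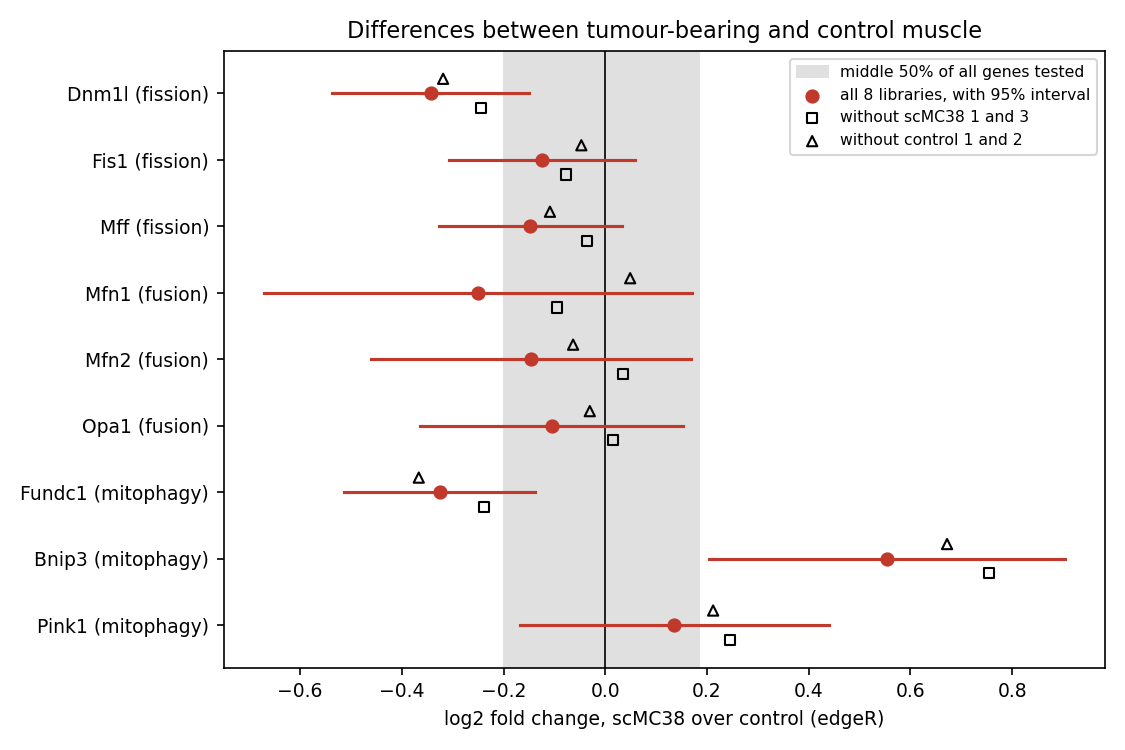
Log2 fold change of each of the 9 genes, scMC38 over control, with the 95% interval from edgeR on all 8 libraries, and the values without scMC38 1 and 3 (squares) and without control 1 and 2 (triangles). The grey band spans the 25th to the 75th percentile of all genes tested, -0.20 to 0.19, and the estimates of Dnm1l, Fundc1, Mfn1 and Bnip3 lie outside it.

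Ratios between the genes were taken within each library. The log2 ratio of Bnip3 to Dnm1l lay between 0.67 and 1.17 in scMC38 and between -0.12 and 0.15 in control libraries, with the control mean set to 0. The ratio of Bnip3 to Fundc1, the pair of receptors, lay between 0.62 and 1.34 in scMC38 and between -0.16 and 0.19 in control libraries. That of Bnip3 to Pink1 lay between 0.21 and 0.62 in scMC38 and between -0.22 and 0.15 in control libraries. Of the fission genes only Dnm1l was set against fusion genes, Opa1 and Mfn2, and its ratio depended on the partner taken. Dnm1l over Opa1 was lower in every scMC38 library, at -0.30 to -0.13 in scMC38 and -0.05 to 0.07 in control libraries. Dnm1l over Mfn2 overlapped between groups, at -0.32 to -0.01 in scMC38 and -0.06 to 0.08 in control libraries. Mfn2 over Mfn1 also overlapped, at -0.09 to 0.20 in scMC38 and -0.27 to 0.32 in control libraries. Bnip3 lay above, and Dnm1l and Fundc1 below, every control, so the ratios of Bnip3 to Dnm1l and to Fundc1 had to lie apart. All ratios here were formed from genes whose own differences had been seen, and no test was made on them.

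Per length, the 9 genes spanned a wide range of abundance that was in the same order in both groups. Levels per kilobase of exon, from GENCODE M21 gene models, were highest for Pink1, at 238 CPM per kb in scMC38 and 216 CPM per kb in control libraries. Bnip3 followed at 152 CPM per kb in scMC38 and 104 CPM per kb in control libraries, and then came Mfn2, Fis1, Mff and Mfn1. The lowest were Opa1, at 15.5 CPM per kb in scMC38 and 16.7 CPM per kb in control libraries, then Dnm1l, at 12.4 CPM per kb in scMC38 and 15.7 CPM per kb in control libraries, and Fundc1, at 8.29 CPM per kb in scMC38 and 10.4 CPM per kb in control libraries. Neighbours in this order had ranges apart within each group, except Opa1 and Dnm1l in both groups and, in control libraries, Bnip3 and Mfn2 and also Mff and Mfn1. The mRNA of the mitofusin Mfn2 was thus more abundant per length than that of Mfn1 in every library, at 59.3 to 87.7 CPM per kb against 25.7 to 35.4 CPM per kb in scMC38, and at 77.95 to 94.7 CPM per kb against 25.4 to 46.3 CPM per kb in control libraries. Exon lengths are the union of exons of a gene's protein-coding transcripts in the basic set, so a muscle isoform that uses fewer of them would be placed too low.

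Mitochondrial genes in general differed between the mice. A list of 24 nuclear genes of mitochondrial content, among them Timm23 of the inner membrane translocase and Ndufb8 of complex I, had 24 negative fold changes. Their median was -0.29, and 0 were called, where 1.2% of all genes tested were. Relative to the control mean, the mean log2 level of the list was -0.32, -0.28, -0.41 and -0.04 in scMC38 libraries 1 to 4, against 0.12, 0.47, -0.15 and -0.43 in control libraries 1 to 4. The groups overlapped: control 3 and control 4 lay below scMC38 4, and control 4 was the lowest of all 8 libraries. Oxidative fibre markers also differed within the controls. They summed to 85.7 to 666 CPM in scMC38 libraries, against 1349, 3188, 764 and 9.92 CPM in control libraries 1 to 4. Most of the sum in controls was Myh2, at 1306, 2296, 529 and 9.43 CPM. Myh7, at 2.19, 185, 76.5 and 0.0546 CPM, and Tnni1, at 0.887, 53.1, 11.2 and 0.0546 CPM, were lower in control 1 than in control 3. The part of fibre composition in the values of the 9 genes was not tested.

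Mfn1 followed this content level closely. Over the 8 libraries the SD of its log2 level was 0.300, and 0.0437 once the content level of each library was subtracted. Only 5 of the 14088 genes outside the list, or 0.0355%, had a smaller SD after that step. After subtraction Mfn1 was at 0.02, 0.08, -0.02 and 0.07 in scMC38 libraries, against 0.02, -0.05, 0.03 and -0.01 in control libraries. The 24 genes and Mfn1 were measured in the same libraries, and this closeness is a description. For the other 8 genes the SD after subtraction was between 0.211 for Opa1 and 0.469 for Bnip3, in each case above its SD before. It went from 0.212 to 0.22 for Dnm1l, from 0.114 to 0.224 for Fis1 and from 0.202 to 0.309 for Fundc1.

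Set against the content level, which was done after the values had been seen, Bnip3 and Pink1 stood above controls and the remaining 7 genes overlapped. Bnip3 was at 0.68, 0.76, 0.76 and 1.00 in scMC38 libraries, against 0.00, -0.34, 0.06 and 0.28 in control libraries, a difference of 0.80. Pink1 was at 0.47, 0.41, 0.36 and 0.38 in scMC38 libraries, against -0.03, -0.38, 0.28 and 0.13 in control libraries, a difference of 0.40. On this scale the groups did not overlap, with scMC38 higher, in 5.48% of all genes, and with scMC38 lower in 1.08%. Dnm1l and Fundc1, whose groups were apart in CPM, differed by -0.08 and -0.07 with groups that overlapped. On this scale their SD was 0.32 and 0.422 in control libraries, against 0.0789 and 0.205 in scMC38 libraries. Without control 1 and 2, the controls with the highest content levels, the differences were 0.63 for Bnip3, 0.20 for Pink1, -0.34 for Dnm1l and -0.39 for Fundc1.

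**Figure D3:**
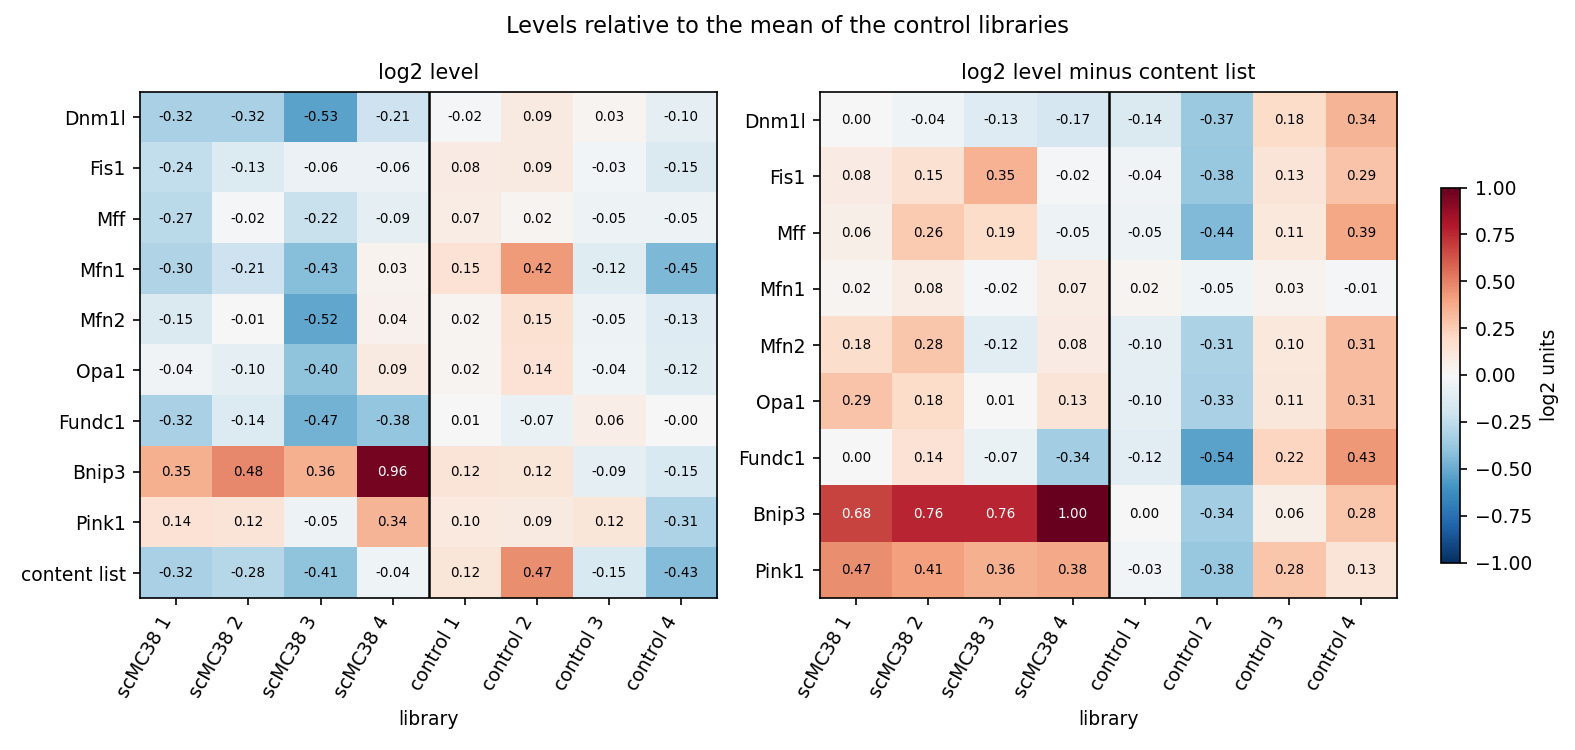
Log2 level of each gene in each library relative to the mean of the 4 control libraries (left, with the mean of the 24 mitochondrial content genes in the last line) and the same after the content level of the library was subtracted (right). Mfn1 spans 0.869 log2 units on the left and 0.123 on the right, and the line of Bnip3 is high in the 4 scMC38 libraries in both.

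Genes that work with these 9 were counted in 7 lists with 68 genes, of which 64 were tested. Of these, 1 was called higher and 0 lower, against 0.737% and 0.468% of all genes tested. Groups were apart in 10 genes higher and 4 lower, against 6.82% and 6.45% of all genes tested. The called gene was Ulk1, the kinase that starts autophagosome formation and is known to phosphorylate Fundc1. Ulk1 was at 153, 164, 139 and 174 CPM in scMC38 libraries, against 112, 96.4, 103 and 120.3 CPM in control libraries, with no overlap. Its log2 fold change was 0.55 (SE 0.103, adjusted p = 0.0485, edgeR), and it passed the threshold in 1 of 8 fits that each left out a library, with adjusted p between 0.0497 and 0.147 over those fits.

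On the fission side, 11 partners were tested, with 3 positive, 8 negative and a median log2 fold change of -0.26. Gdap1, an outer-membrane protein linked to fission, had 9.63 ± 3.21 CPM in scMC38 and 19.5 ± 8.69 CPM in control libraries, a log2 fold change of -1.02 (n = 4 each, adjusted p = 0.152, edgeR) with groups that overlapped. Mtfr1l, a fission regulator, had 98.6 ± 11.4 CPM in scMC38 and 118 ± 7.27 CPM in control libraries, at -0.26 with adjusted p = 0.191 (n = 4 each, edgeR). Its groups were apart, with scMC38 lower, as in 6.45% of all genes tested. The 11 genes of fusion and inner membrane proteolysis had 5 positive and 6 negative values and a median of -0.02. The smallest p among them belonged to Oma1, the protease that cuts Opa1, at -0.27 (adjusted p = 0.26), and to Miga2, a mitoguardin gene, at -0.34 (adjusted p = 0.331). All 8 MICOS genes, which build the cristae junctions, were negative with a median of -0.23. Micos10 had 56.2 ± 1.34 CPM in scMC38 and 74.5 ± 14.5 CPM in control libraries (n = 4 each, adjusted p = 0.134, edgeR), with groups apart. Apool was at -0.33 (adjusted p = 0.208, edgeR). Of the 5 genes of mitochondrial transport, 4 were negative. The kinesin adaptor gene Trak1 had 196 ± 24.8 CPM in scMC38 and 288 ± 50.3 CPM in control libraries, at -0.55 with adjusted p = 0.0964 (n = 4 each, edgeR), and groups apart. Trak2 was at -0.28 (adjusted p = 0.193, edgeR).

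On the mitophagy side, signs were mostly positive among genes of the Pink1 pathway and the Atg8 family, and mixed among receptor genes. Of all genes tested, 50.16% were positive. The lists were not split into genes that promote and genes that restrain mitophagy. Of 14 genes of the Pink1 pathway, 11 were positive and 3 negative, with a median of 0.14, and in 6 of the positive ones the scMC38 libraries all lay above the controls, as in 6.82% of all genes tested. Tbk1, which phosphorylates mitophagy adaptors, was at 0.28 (adjusted p = 0.117, edgeR). Of 10 genes of receptor mitophagy, Ulk1 and Bnip3l included, 6 were positive and 4 negative, with a median of 0.07. All 5 genes of the Atg8 family, whose products on the autophagosome are what Bnip3 and Fundc1 bind, were positive with a median of 0.29, and groups were apart in 3, where 6.82% of all genes tested had scMC38 above control. Map1lc3b had 234 ± 24.6 CPM in scMC38 and 169.9 ± 16.2 CPM in control libraries, at 0.46 with adjusted p = 0.0825, and Gabarap had 143 ± 9.41 CPM in scMC38 and 117 ± 7.86 CPM in control libraries, at 0.29 with adjusted p = 0.114 (SD, n = 4 each, edgeR).

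**Figure D4:**
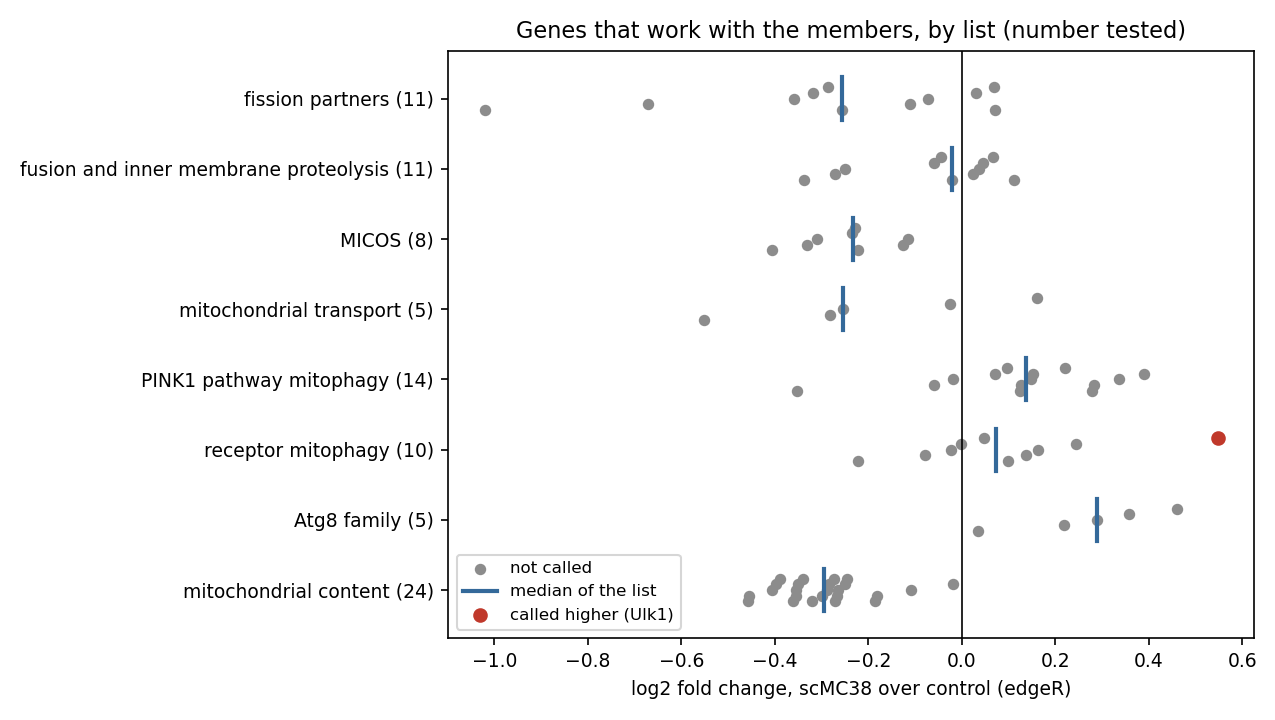
Log2 fold change, scMC38 over control, of the tested genes of each list, with the list's median as a bar. The called gene, Ulk1 at 0.55, is in red, all 24 mitochondrial content genes lie below 0, and all 5 Atg8 genes lie above 0.

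Genes of the regulators known for Bnip3, and targets of these regulators, were set beside it. Of 5 genes of FoxO factors and muscle ubiquitin ligases, 2 were called higher, against 0.737% of all genes tested. The factor genes Foxo1, Foxo3 and Foxo4 were not called, and their groups overlapped. Their log2 fold changes were 0.46, 0.669 and 0.058 (adjusted p = 0.442, 0.0924 and 0.791, edgeR). The ubiquitin ligase genes Fbxo32 and Trim63, both FoxO targets in muscle, rose in scMC38. Fbxo32 was at 906, 1489, 1387 and 2013 CPM in scMC38 libraries, against 501, 293, 411 and 474 CPM in control libraries, which is 1.79 on the log2 scale (SE 0.262, adjusted p = 0.0273, edgeR). Trim63 was at 716, 766, 874 and 1304 CPM in scMC38 libraries, against 281, 263, 442 and 262 CPM in control libraries, which is 1.55 on the log2 scale (SE 0.247, adjusted p = 0.0322, edgeR). Both were highest in scMC38 4, the library in which Bnip3 was highest. Among scMC38 libraries, Dnm1l, Mfn1, Mfn2, Opa1 and Pink1 were also highest there, while Mff and Fundc1 were highest in scMC38 2. A link between the ligase genes and Bnip3 was not tested. Leaving out single libraries kept the call of Fbxo32 in 4 of 8 fits and that of Trim63 in 1 of 8, with adjusted p up to 0.0963 and 0.115. Of 8 targets of hypoxia-inducible factors, 0 were called, where 1.2% of all genes tested were. In this list 5 were positive and 3 negative, and the median was 0.06. Vegfa, the vascular growth factor gene, was at -0.58 (adjusted p = 0.177) and Ankrd37 at 0.48 (adjusted p = 0.289, edgeR). Of 6 genes of mitochondrial biogenesis, 3 were negative. Ppargc1a, the coactivator gene of that program, had 29.6 ± 7.48 CPM in scMC38 and 43.5 ± 13.6 CPM in control libraries, at -0.55 with adjusted p = 0.234, and Esrra, the estrogen-related receptor gene, was at -0.58 with adjusted p = 0.149 (n = 4 each, edgeR).

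Over all pairs of the 9 genes, 30 of 36 correlations of log2 CPM over the 8 libraries were positive, with a median r of 0.51. The closest pair was Mfn2 and Opa1 (r = 0.95, and 0.94 with group means removed). Dnm1l and Fundc1 had r = 0.83, which was 0.27 with group means removed. Fundc1 and Bnip3 were most opposed, with r = -0.75, and -0.16 with group means removed. Among all genes, those most like each member over the 8 libraries were Tspan3 (r = 0.997) and Eif4e (r = 0.988) for Dnm1l, Pcnp and Mix23 for Fis1, and Abhd17a and Txnl4a for Mff. They were Coq10a (r = 0.994) and Nipsnap2 (r = 0.993) for Mfn1, Gfm2 and Extl1 for Mfn2, and Slc2a4 (r = 0.989) and Acad9 for Opa1. For Fundc1 they were Pradc1 (r = 0.997) and Ibtk, for Bnip3 Clptm1 (r = 0.988) and Utp4, and for Pink1 Aldh6a1 and Synpo. The number of genes with r over 0.9 ran from 40 for Pink1 to 424 for Mfn1. These correlations share libraries, group and scaling, and are given without a test.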

How the data were processed

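Total RNA of quadriceps went into libraries of the Universal Plus mRNA-seq type, per the labels' protocols. Salmon 1.10.3, fastp 1.0.1, R 4.4.3, FastQC 0.12.1, MultiQC 1.30 and the build GRCm39 are listed, without roles, in the submitters' processing notes. Annotation release and strand handling: not given in the sources used here. Deposited values are estimated counts per gene, unscaled, and 49.3% of nonzero values carry a fraction. Genes on the opposite strand overlap Dnm1l, Mff and Bnip3 in GENCODE M21, and their reads may not be told apart from those of the members.

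Of 35667 rows, 144 without a symbol (at most 0.00403% of a library's counts) were left out, and the rows of 26 repeated symbols were summed. Counts were rounded, filtered (filterByExpr, minimum count 10, minimum total 15), TMM-scaled and tested with edgeR 4.0.16 in R 4.3.3 (robust quasi-likelihood F test, scMC38 minus control, no covariate). The Benjamini-Hochberg adjustment ran over the 14112 genes tested, with a threshold of 0.05. CPM are TMM-scaled, and log2 CPM carry a prior count of 2. DESeq2 1.42.0, other scalings and filters, a replicate block and left-out libraries were alternatives. The test was checked on simulated data. The common biological coefficient of variation was 27.3%, so the spread between mice, not depth, sets the precision. Pairs of libraries within a group differed beyond counting noise (chi-square per degree of freedom 63.2 to 480). Replicate numbers showed no sign of pairing the libraries.

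The 9 members and all lists were chosen with earlier results of these data known. The genes named are the members, up to 4 called genes of each list or else the 2 with the smallest p, and the 2 genes most correlated with each member. A gene that the rule selects is not reported here. Bnip3l, Foxo1, Foxo3, Foxo4, Myh2, Myh7, Tnni1, Acta1 and Ckm were named beside that rule.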

Additional observations from a re-analysis of the deposited data

Results flagged for a closer look

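In 62 groups of 4 libraries checked, 3 held a library far from the rest of its group, and chance gives about 1 in 20. The library control 4 had Pink1 at 463.5 CPM, where the other controls were at 610.4 to 624.6 CPM. The same library had Map1lc3b at 145.8 CPM, where the other controls were at 175.7 to 180.7 CPM. The library control 3 had Trim63 at 441.7 CPM, where the other controls were at 261.7 to 280.6 CPM. Without control 4 the log2 fold change of Pink1 was 0.04.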

How the results depend on the processing

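Over the 17 alternatives planned, 146 of 153 values of the 9 genes kept their direction and their side of the threshold, 4 newly passed it and 3 turned round. DESeq2 called 829 genes higher and 597 lower, with 1 of the 9 genes higher (Bnip3, adjusted p = 0.0120) and 2 lower (Dnm1l, adjusted p = 0.00919, and Fundc1, adjusted p = 0.0131). Total counts called 216 genes higher, 1 of them Bnip3. Without a filter on low counts 69 genes were higher. Leaving out single libraries gave 1 to 59 genes higher and 1 to 52 lower, and 0 of the 9 genes. Without scMC38 1 and 3, 25 genes were higher and 39 lower, and Mfn2 (0.0355) and Opa1 (0.0151) turned positive. Without control 1 and 2, 0 genes were higher and 0 lower, and Mfn1 (0.0490) turned positive. Both fits called 0 of the 9 genes. Relative to the 24 content genes, an alternative chosen after seeing the data, Fis1 (0.14), Mff (0.11), Mfn1 (0.0382), Mfn2 (0.11) and Opa1 (0.15) turned positive. The causes were not tested.

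With the replicate number as a block, 0 genes were higher and 1 lower, and Dnm1l, Fundc1 and Bnip3 had adjusted p of 0.282, 0.288 and 0.299 (edgeR). The correlations of same-numbered libraries were -0.113, -0.281, -0.01 and -0.245, and in 0 of 4 numbers was the best match the library of the same number. The numbers thus showed no sign of pairing, but with 4 libraries per group this cannot tell whether libraries shared a batch.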
